A study of Homo sapiens with 4 samples.

Results

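Stathmins and neuronal microtubule genes were examined in RNA sequencing (RNAseq) of the IMR-32 neuroblastoma line, an established line of human origin, after knockdown of NeuroD1, a neurogenic transcription factor. They are 10 of the 60612 genes in the count table: STMN1, STMN2, STMN3, STMN4, DCX, MAP1B, MAP2, MAPT, TUBB3 and GAP43. The 10 genes were selected by name, as neuronal microtubule and growth cone genes, with results of this same contrast already known. Their differences between the groups are therefore given as a description, with no p-value. The number of them past the threshold of the fit over all genes is printed once, beside the share of all genes, and supports nothing. All 10 passed the filter on low counts, as did 17537 genes in all.

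The cells carried a short hairpin RNA that doxycycline switches on, and both groups received doxycycline at 1 µg/mL for 48 h. The shControl group (2 libraries) expressed a control hairpin, and its genotype is labelled wild type, while the series text calls these cells parental. The shNeuroD1 group (2 libraries) expressed a hairpin against NeuroD1. The labels do not say which NeuroD1 hairpin it was and leave unstated whether libraries within a group came from separate cultures, so a p-value below measures only the spread between these libraries, which may be technical. All values come from 1 cell line.

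Totals ranged from 14665210 to 16482463 counts per library. The mitochondrial share was 4.37% to 4.59% in the controls and 5.39% to 5.51% after knockdown, with no overlap, and the part of this difference in the results was not tested. Levels are given as CPM, counts scaled to the effective size of each library. NEUROD1 stood at 418.9 and 414.5 CPM with the control hairpin and at 63.7 and 58.2 CPM under knockdown, a log2 fold change of -2.77 ± 0.0504 (SE) with an adjusted p of 8.59e-29 in edgeR. All 9 sympathetic neuroblastoma markers examined, among them PHOX2A, HAND2, GATA3, ISL1, TH, DBH and CHGA, averaged at least 1 CPM. Their sum was 2133 to 2151 CPM in shControl and 1839 to 1880 CPM in shNeuroD1. Schwann cell markers reached 1 CPM in 3 of 6 genes, with a sum of 5.42 to 5.43 CPM in shControl and 8.74 to 10.1 CPM in shNeuroD1, and FOXD3 was at 0. Fibroblast markers reached it in 3 of 6 genes, with sums of 44.6 to 49.4 and 36.3 to 38.9 CPM, and blood cell markers in 0 of 4, with HBA1 and HBB at 0. The part that any of these marker differences plays in the results below was not tested.

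Microtubules are hollow polymers of alpha- and beta-tubulin that carry transport along axons and dendrites and form the spindle of dividing cells. Stathmins bind free tubulin dimers and promote the disassembly of microtubules. STMN1 is found in many dividing cells, whereas STMN2, STMN3 and STMN4 are largely neuronal. Doublecortin (DCX), the MAP1 and MAP2 proteins and tau (MAPT) bind along the polymer and stabilise it, TUBB3 is the beta-tubulin used as a marker of neurons, and GAP43 is a membrane-bound protein of the growing axon tip. In sympathetic cells these genes are commonly read as signs of neurite growth.

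In NeuroD1 knockdown cells, 7 of the 10 genes were called higher, a call made for 26.8% of all genes tested, and 2 (STMN1 and DCX) were called lower, a call made for 28.2% of all genes. Calls were made at an adjusted p under 0.05. TUBB3 was not called. A log2 fold change beyond 1 was reached by 3 of the higher genes (STMN4, MAPT and GAP43), against 8.79% of all genes, and by 0 of the lower ones, against 5.14%. The libraries of both groups did not overlap in 9 of the 10 genes, as in 76.1% of all genes. These counts follow from the same contrast that was known when the genes were chosen, so nothing is read from them. The median log2 fold change was 0.36 over the 10 genes and 0.01 over all genes. In bulk RNA, fewer cells of a type and less RNA per cell cannot be told apart.

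**Figure D1:**
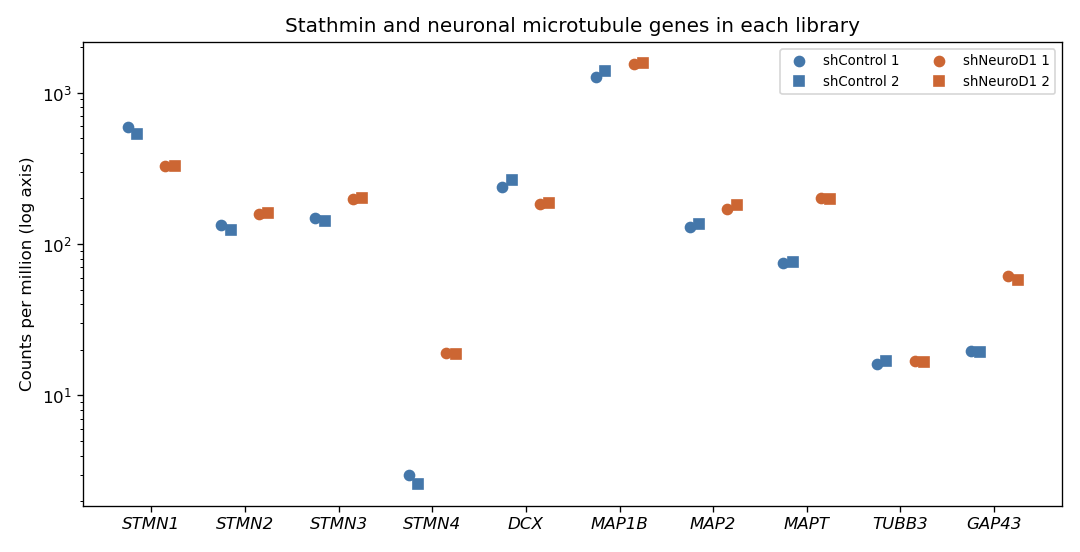
CPM (counts scaled to library size, log axis) of the 10 genes in each of the 4 libraries, with shControl in blue and shNeuroD1 in orange, and circles and squares for replicates 1 and 2. The libraries of a group lie close together, and the groups overlap only for TUBB3.

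DCX has an alternative coding sequence that a transcript result below turns on, and it is shown for that reason, from GENCODE release 29 on GRCh38. The exon at chrX:111330904-111331041 (minus strand) has a longer form of 138 bases, and the 15 bases that the shorter form lacks stand in capitals.
DCX: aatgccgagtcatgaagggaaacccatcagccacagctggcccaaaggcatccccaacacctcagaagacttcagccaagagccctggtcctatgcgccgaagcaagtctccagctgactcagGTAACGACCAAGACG

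The stathmins moved in both directions. STMN1 was lower, while STMN2, STMN3 and STMN4 were higher. STMN1 (ENSG00000117632, chr1:25884181-25906991, minus strand, GRCh38) stood at 590.6 and 531.3 CPM in shControl and at 327.4 and 329.7 CPM in shNeuroD1. Both knockdown libraries lay well below both controls, at 58.6% of the control mean, and the log2 fold change was -0.77 ± 0.0449 (SE). The shControl libraries differed more from each other (561.0 ± 41.9 CPM, SD, n = 2) than the shNeuroD1 libraries (328.6 ± 1.64 CPM, n = 2).

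STMN4 (ENSG00000015592, chr8:27235323-27258420, minus strand) was the least abundant stathmin and the one with the largest fold difference. It had 44 and 41 raw counts in the controls against 289 and 284 after knockdown. Scaled to depth this was 2.99 and 2.58 CPM against 19.0 and 18.7 CPM, which is 6.76-fold higher and a log2 fold change of 2.76 ± 0.159 (SE). Its low counts in the controls give it the widest error of the 10 genes.

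STMN2 and STMN3, both membrane-attached stathmins of neurons, differed by less. STMN3 (ENSG00000197457, chr20:63639705-63657682, minus strand) stood at 147.6 and 142.7 CPM in shControl and at 199.6 and 201.2 CPM in shNeuroD1 (log2 fold change 0.47 ± 0.0456, SE). STMN2 (ENSG00000104435, chr8:79610814-79666175, plus strand) stood at 133.8 and 123.8 CPM and at 157.3 and 161.2 CPM, a log2 fold change of 0.31 ± 0.0491 (SE). The groups did not overlap for either gene. The authors' FPKM values put nearly all STMN2 RNA on 1 transcript start. A second, downstream start was listed in the shNeuroD1 libraries alone, at 1.29 and 0.79 FPKM.

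The summed level of the 4 stathmins per kilobase of exon depended on the gene length used. With the union of exons it stood at 200.6 and 185.1 CPM per kb in the controls against 190.5 and 192.9 CPM per kb in shNeuroD1, and the knockdown values lay between those of the controls. With the longest annotated transcript as length it stood at 324.7 and 297.8 CPM per kb in the controls and at 275.1 and 278.1 CPM per kb after knockdown, below both controls. In the authors' FPKM it stood at 243.9 and 331.9 against 271.1 and 256.5, and the groups overlapped. The composition given next is that over the union of exons. STMN1 made up 47.0% and 45.8% of it in shControl and 27.5% and 27.3% in shNeuroD1. STMN2 went from 28.2% and 28.3% to 35.0% and 35.4%, STMN3 from 24.3% and 25.4% to 34.6% and 34.4%, and STMN4 from 0.5% and 0.4% to 3.0% and 2.9%. STMN1 thus led the family in shControl, and STMN2 and STMN3 stood above it in shNeuroD1. This order also depended on the length. With the longest transcript STMN1 led in both groups, at 61.7% and 60.5% in shControl and 40.4% and 40.2% in shNeuroD1. In the authors' FPKM it also led in both, at 61.3% and 72.6% in the controls against 50.5% and 47.6% under knockdown. Its lower share in the knockdown libraries held on all 3 scales.

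**Figure D2:**
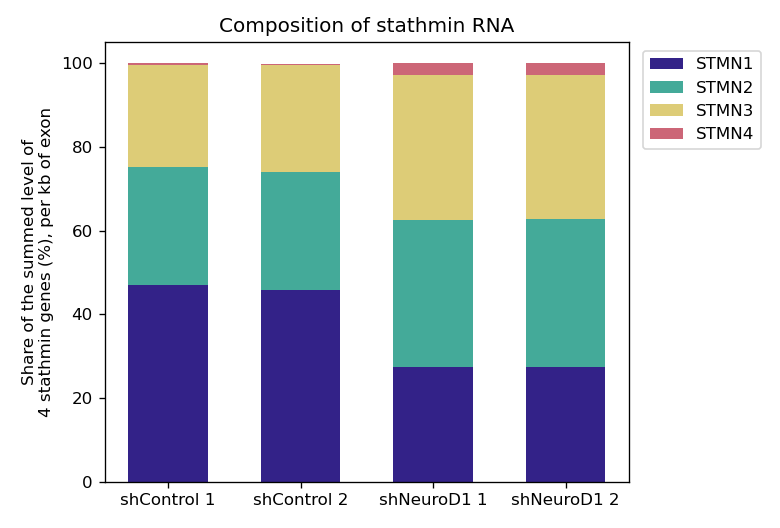
Share of each stathmin gene in the summed level of the 4 stathmins (CPM per kb of exon, in percent) in each library. STMN1 takes 45.8% to 47.0% in shControl and 27.3% to 27.5% in shNeuroD1, and STMN4 goes from a barely visible share to 2.9% to 3.0%.

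Among the proteins that bind along the microtubule, tau differed most. MAPT (ENSG00000186868, chr17:45894382-46028334, plus strand) stood at 74.4 and 76.3 CPM in shControl and at 202.7 and 198.9 CPM in shNeuroD1. That is 2.67-fold higher, a log2 fold change of 1.41 ± 0.0494 (SE), and the libraries within each group were almost equal. The antisense gene MAPT-AS1 covers 0.5% of its exon bases, and the use of strand in counting was not stated.

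MAP2, the dendritic microtubule-associated protein, and MAP1B, an axonal one that appears early in neurons, were also higher. MAP2 (ENSG00000078018, chr2:209424058-209734118, plus strand) stood at 129.2 and 135.9 CPM in shControl and at 170.8 and 180.2 CPM in shNeuroD1 (log2 fold change 0.40 ± 0.0481, SE). MAP1B (ENSG00000131711, chr5:72107234-72209570, plus strand) had the most counts of the 10 genes, at 1260 and 1398 CPM and at 1541 and 1557 CPM. Its log2 fold change of 0.22 ± 0.0416 (SE) was the smallest among the genes called, and the gap between the groups (1398 to 1541 CPM) was about as wide as the gap between the 2 controls. Without shControl replicate 1 it was 0.15 and without shControl replicate 2 it was 0.30.

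DCX, the microtubule-binding protein of migrating young neurons, went the other way. It (ENSG00000077279, chrX:111293779-111412429, minus strand) stood at 239.2 and 263.5 CPM in shControl and at 185.0 and 186.9 CPM in shNeuroD1 (log2 fold change -0.44 ± 0.0472, SE). Its level in knockdown cells was 74.0% of the control mean. DCX and STMN1 were thus the 2 genes of the 10 that were lower.

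TUBB3 did not separate the groups. TUBB3 (ENSG00000258947, chr16:89921392-89938761, plus strand) stood at 16.1 and 16.8 CPM in shControl and at 17.0 and 16.7 CPM in shNeuroD1 (log2 fold change 0.03 ± 0.109, SE). A read-through gene on the same strand, AC092143.1, covers 35.8% of its exon bases, and reads there may not have been counted for TUBB3, so its level is uncertain. The authors' FPKM for its transcript start, 28.3 and 30.9 in shControl and 30.6 and 32.1 in shNeuroD1, overlapped between the groups as well.

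GAP43, the growth cone protein, was among the 3 genes with the largest fold differences. GAP43 (ENSG00000172020, chr3:115623324-115721490, plus strand) stood at 19.6 and 19.3 CPM in shControl and at 61.3 and 58.1 CPM in shNeuroD1. This is 3.07-fold higher, a log2 fold change of 1.62 ± 0.077 (SE), with libraries within a group much closer than the groups. The authors' FPKM summed over its transcript starts gave 9.76 and 9.58 in shControl and 29.0 and 31.2 in shNeuroD1.

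**Figure D3:**
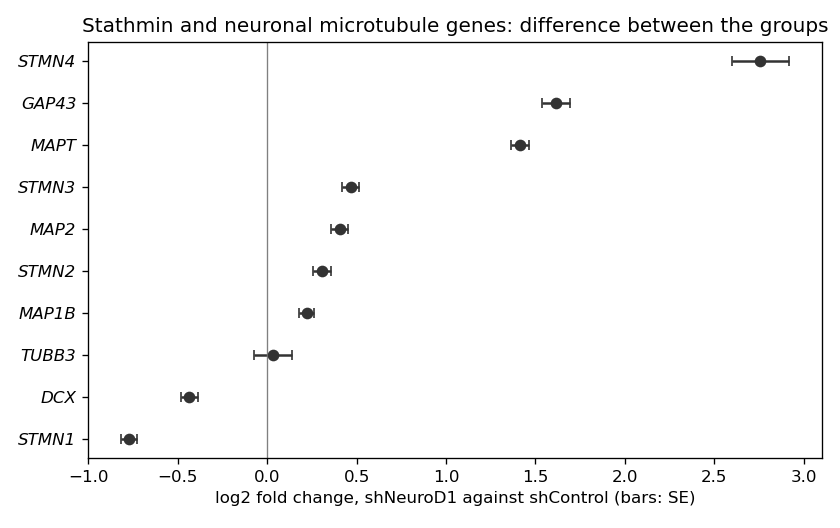
Log2 fold change of each gene, shNeuroD1 against shControl, with bars for the SE of the edgeR fit to 2 libraries a group. STMN4, GAP43 and MAPT lie beyond 1, STMN1 (-0.77) and DCX (-0.44) lie below 0, and TUBB3 (0.03) lies at 0.

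The authors' FPKM, another measure of the same libraries, spread more widely within a group for some of the genes. In FPKM summed over transcript starts, STMN1 stood at 149.6 and 241.1 in shControl and 136.9 and 122.2 in shNeuroD1, and MAPT at 10.4 and 17.5 in shControl and 38.4 and 45.7 in shNeuroD1.

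Ordered by level per kilobase of exon, the shControl group ran from MAP1B (105.2 CPM per kb) and STMN1 (89.6) through STMN2 (54.5), STMN3 (47.9), DCX (24.6), MAP2 (11.5), GAP43 (9.33), MAPT (5.05) and TUBB3 (3.71) to STMN4 (0.845). In shNeuroD1 the order was MAP1B (122.6 CPM per kb), STMN2 (67.4), STMN3 (66.1), STMN1 (52.5), GAP43 (28.6), DCX (18.2), MAP2 (15.2), MAPT (13.5), STMN4 (5.72) and TUBB3 (3.80). GAP43 passed DCX and MAP2, and STMN1 went from the second place to the fourth. No pair of neighbours overlapped between libraries in either group, though STMN2 and STMN3 in shNeuroD1 came close, at 66.6 and 68.3 against 65.8 and 66.3 CPM per kb. The places within the order depended on the length and the measure used. Exon unions are long for genes with many alternative exons. With the longest transcript as length, or with the authors' FPKM, MAP1B, STMN1, STMN2 and STMN3 still took the 4 highest places in both groups, in a changed order, and STMN4 the lowest. TUBB3 took place 9 in shControl and 10 in shNeuroD1 over the exon union, but places 5 and 6 in the authors' FPKM. Its reads shared with AC092143.1 may not have been counted, so its place is uncertain.

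Alternative forms of the transcripts were compared through the authors' FPKM of splicing events. No test was run, because 2 libraries a group cannot reach a p under 0.05 in an exact permutation test. The forms described were chosen after their values were seen, and 5 of them averaged at least 1 FPKM with and without the feature. In MAPT, an N-terminal exon of 87 bases at chr17:45971859-45971945 was mostly skipped. Its inclusion made up 2.8% and 8.4% in shControl and 4.4% and 6.2% in shNeuroD1, and the groups overlapped.

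In DCX, the longer form of the exon printed above was nearly level, at 4.69 and 6.31 FPKM in shControl and 6.66 and 6.27 FPKM in shNeuroD1. The shorter form was lower in knockdown, at 13.5 and 13.7 FPKM against 8.61 and 9.34 FPKM. The longer form made up 25.8% and 31.6% in shControl and 43.6% and 40.2% in shNeuroD1, with no overlap. The gap between the groups was wider than that within either. A second alternative exon of DCX (95 bases, chrX:111312642-111312736) was included in 45.6% and 50.4% in shControl and in 57.5% and 51.9% in shNeuroD1, where the gap between the groups was narrower than that within them.

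In MAP2, the large exon that sets the long dendritic forms apart from the short ones was included in 12.6% and 12.1% of FPKM in shControl and in 14.0% and 15.1% in shNeuroD1. The groups did not overlap, and the gap between them was small but wider than that within either. Short forms without it were the bulk of MAP2 in every library, at 10.4 and 13.1 FPKM in shControl and 17.5 and 20.3 FPKM in shNeuroD1. An added repeat exon of MAP2 (93 bases, chr2:209723595-209723687) was included in 0.9% and 5.6% in shControl and in 0.7% and 3.2% in shNeuroD1, and the groups overlapped. A retained intron of STMN1 made up 9.4% and 5.7% in shControl and 6.2% and 11.1% in shNeuroD1, which overlapped too.

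**Figure D4:**
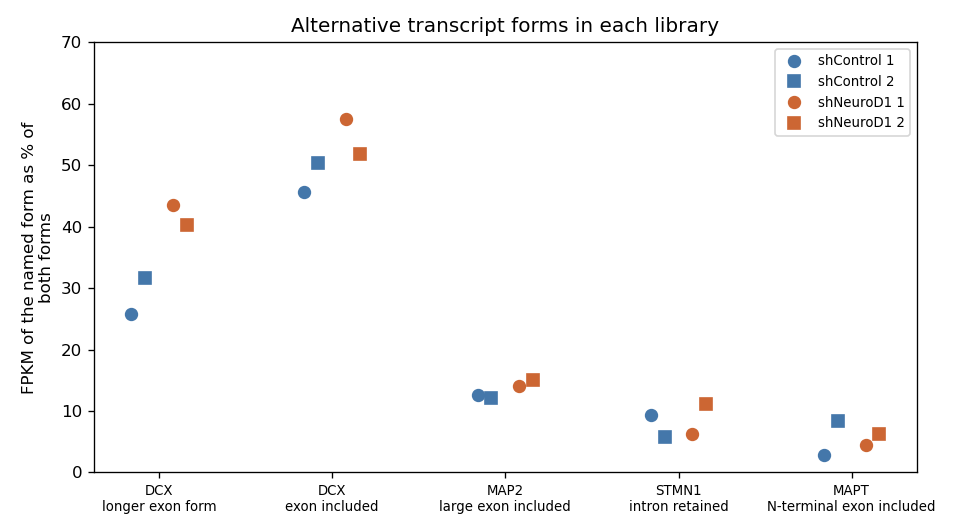
FPKM of the named form as a percent of both forms in each library, for the 5 alternative forms that averaged at least 1 FPKM with and without the feature. The groups do not overlap for the longer DCX exon form (25.8% and 31.6% against 43.6% and 40.2%), the second DCX exon and the large MAP2 exon, and they overlap for the MAPT N-terminal exon and the retained STMN1 intron.

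Promoters of 7 of the 10 genes were found in a RefSeq table (GRCh38.p14, 250 bases before to 50 after the start). They were searched on both strands for the E-box CANNTG, the class of motif that basic helix-loop-helix factors such as NeuroD1 bind. STMN1, STMN3, MAP2 and GAP43 held a match and DCX, MAP1B and TUBB3 held none, against 68.7% of all 35116 promoters of the same length with one. The variants CAGATG and CAGCTG, which are themselves E-boxes, were found in 0 of the 7, against 14.7% and 17.9% of all promoters. The windows of STMN3 and MAP2 lie 658 and 434 bases from the main start in the authors' files, so they are not the promoters of that start. Much of some windows is annotated exon of the same gene. Of the 250 bases before the start, this held for 237 in DCX, 241 in MAP1B, 250 in MAP2 and 186 in GAP43. It held for 47 in STMN1, 63 in TUBB3 and 0 in STMN3. A match is not evidence of binding, and a window without one says nothing of NeuroD1 elsewhere.

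Other microtubule genes were described in 9 lists, each given by the genes that passed the test in each direction and by its median log2 fold change. The lists, like the 10 genes, were chosen with earlier results of these data known. Their counts and adjusted p-values are therefore a description and not independent support. The 3 genes named in a list have the largest changes among called genes that averaged 10 CPM or more, adjusted p-values are from edgeR over all genes, and other genes named were chosen after their values were seen. Scaling to library size alone, in place of TMM, put the median of all genes at 0.12 and the calls over all genes at 6114 higher and 3639 lower, in place of 4698 and 4939. Counts with library size alone stand beside the main ones for some lists, and a list without them may also have moved. Of the 24 genes selected in the lists that had a value in the limma fits to the authors' FPKM, 19 lost their call in at least 1 of these fits and 0 changed direction.

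The tubulins fell more often than they rose. Of 17 tubulin genes tested, 10 were called lower and 2 higher, with a median of -0.38. TUBA1B, a widely expressed alpha-tubulin, fell from 914.8 and 921.1 CPM to 463.4 and 463.8 CPM, a log2 fold change of -0.99 ± 0.039 (SE, adjusted p = 4.02e-20). The beta-tubulin TUBB6 fell from 63.3 and 66.2 CPM to 30.4 and 33.6 CPM (log2 fold change -1.02 ± 0.0701, adjusted p = 5.79e-14). TUBB4B, another beta-tubulin, fell from 165.5 and 173.2 CPM to 92.6 and 89.4 CPM (log2 fold change -0.90 ± 0.0498, adjusted p = 2.7e-16). TUBA1A, the main alpha-tubulin of developing neurons, did not pass the test, at 831.7 and 801.8 CPM and at 779.2 and 775.5 CPM. The genes called higher were TUBG2 and TUBB4A. TUBB4A was scarce in every library, at 0.068 and 0.252 CPM in shControl and at 1.117 and 1.051 CPM in shNeuroD1. Tubulin genes are close copies of each other, so reads may have been split between them, and without shControl replicate 2 the count called higher was 1.

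Microtubule-associated proteins other than those above rose more often than they fell, with 20 of 41 tested genes higher, 6 lower (27 and 4 with library size alone) and a median of 0.23. TPPP, which promotes tubulin polymerisation, rose from 10.7 and 13.2 CPM to 27.7 and 29.5 CPM (log2 fold change 1.26 ± 0.108, adjusted p = 1.14e-11). MAPRE3, a protein of growing microtubule ends, rose from 24.0 and 22.2 CPM to 46.3 and 47.8 CPM (log2 fold change 1.03 ± 0.0789, adjusted p = 8.51e-13). EML1 fell from 37.7 and 42.3 CPM to 20.7 and 19.2 CPM (log2 fold change -1.003 ± 0.0872, adjusted p = 1.54e-11). Among the doublecortin-like kinases, DCLK1 rose (log2 fold change 0.88 ± 0.0656, adjusted p = 4.19e-13) and DCLK3 fell (-0.90 ± 0.0858, adjusted p = 1.22e-10). DCLK2 was also called higher, by less (log2 fold change 0.28 ± 0.1105, adjusted p = 0.0303).

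Growth cone membrane proteins other than GAP43 moved in both directions. Of 8 tested, 2 were called higher and 3 lower (3 and 3 with library size alone), with a median of -0.19. BASP1, a growth cone protein related in function to GAP43, fell from 419.1 and 375.8 CPM to 276.2 and 266.7 CPM (log2 fold change -0.55 ± 0.0465, adjusted p = 8.04e-12). The adhesion molecule CNTN2 fell from 154.8 and 164.2 CPM to 91.5 and 84.0 CPM (log2 fold change -0.86 ± 0.0527, adjusted p = 2.94e-15), and NCAM1 fell by 0.31 on the log2 scale (SE 0.0416, adjusted p = 1.43e-07), though in limma on FPKM its log2 fold change was -0.032 to -0.034 (adjusted p = 0.87). BASP1 and CNTN2 also lost their calls in both limma fits to FPKM. There BASP1 stood at -0.49 to -0.50 (adjusted p = 0.077 and 0.08) and CNTN2 at -0.95 to -1.03 (adjusted p = 0.05 and 0.054). The genes called higher were L1CAM and PALM. The count called higher was 0 without shControl replicate 1 or without shNeuroD1 replicate 1, and 1 without shControl replicate 2.

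Several enzymes that act on tau, stathmins, DCX or tubulin changed by more than 1 on the log2 scale. Of 24 kinases and phosphatase subunits, 12 were called higher and 8 lower, with a median of 0.07. The tau kinase TTBK1 rose from 18.0 and 14.7 CPM to 58.1 and 56.0 CPM (log2 fold change 1.81 ± 0.0856, adjusted p = 4.37e-18). CAMK2B, a calcium-dependent kinase, rose from 3.60 and 3.46 CPM to 19.7 and 18.5 CPM (log2 fold change 2.43 ± 0.150, adjusted p = 3.96e-15). PPP2R2C, a regulatory subunit of the phosphatase PP2A, rose from 2.10 and 3.09 CPM to 21.8 and 21.1 CPM (log2 fold change 3.04 ± 0.162, adjusted p = 9.78e-17). Its relative PPP2R2B fell from 15.6 and 14.6 CPM to 4.34 and 4.20 CPM (log2 fold change -1.82 ± 0.152, adjusted p = 6.22e-12).

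Of 18 tubulin modifying enzymes, 10 were called higher and 3 lower, with a median of 0.25. TTLL7, which adds glutamate chains to beta-tubulin, fell from 75.0 and 81.4 CPM to 25.9 and 24.3 CPM (log2 fold change -1.64 ± 0.0711, adjusted p = 4.41e-19). The tubulin acetyltransferase ATAT1 rose from 48.4 and 55.7 CPM to 77.2 and 73.7 CPM (log2 fold change 0.53 ± 0.0649, adjusted p = 2.16e-08). HDAC6, which removes the same acetyl group, rose from 64.5 and 64.6 CPM to 107.8 and 109.5 CPM (log2 fold change 0.75 ± 0.0543, adjusted p = 1.93e-13).

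Axonal transport motors counted 11 higher and 5 lower of 25 (15 and 3 with library size alone), with a median of 0.04. The neuronal kinesin KIF5A rose from 57.3 and 61.6 CPM to 114.8 and 114.7 CPM (log2 fold change 0.95 ± 0.0558, adjusted p = 1.18e-15), whereas KIF5B, its widely expressed relative, fell (log2 fold change -0.49 ± 0.0432, adjusted p = 2.09e-11). KIF3B and its partner KIFAP3 rose, with log2 fold changes of 0.73 ± 0.0592 (adjusted p = 3.37e-12) and 0.53 ± 0.0726 (adjusted p = 1.9e-07). The count called lower was 2 without shControl replicate 1. The 9 severing enzymes held 3 higher and 3 lower genes (4 and 2 with library size alone) and a median of 0.01, among them FIGNL1 (log2 fold change -0.35 ± 0.0575, adjusted p = 4.28e-06), whose log2 fold change was -0.17 to -0.19 in limma on FPKM (adjusted p = 0.80). The katanin catalytic subunit KATNA1 (-0.26 ± 0.094, adjusted p = 0.0191) did not hold its call. It was lost in DESeq2 (adjusted p = 0.14), with library size alone (-0.15, adjusted p = 0.18), with no filter (adjusted p = 0.082) and in both limma fits to FPKM (adjusted p = 0.58). In edgeR it was also lost without shControl replicate 1 (-0.16, adjusted p = 0.25), shControl replicate 2 (-0.36, adjusted p = 0.052) or shNeuroD1 replicate 1 (-0.20, adjusted p = 0.16).

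The 7 tubulin folding cofactors held 1 higher and 2 lower genes, with a median of -0.10, and with library size alone 2 higher and 1 lower, with a median of 0.015. ARL2, a small GTPase of that pathway, rose (log2 fold change 0.83 ± 0.0945, adjusted p = 6.05e-09) and TBCC fell (-0.60 ± 0.067, adjusted p = 3.39e-09). TBCA (-0.13 ± 0.0505, adjusted p = 0.0254) did not hold its call either. It was lost in DESeq2 (adjusted p = 0.11), with library size alone (-0.021, adjusted p = 0.74), with no filter (adjusted p = 0.10) and in both limma fits to FPKM (-0.062, adjusted p = 0.74). In edgeR it was also lost without shControl replicate 1 (-0.068, adjusted p = 0.36), shControl replicate 2 (-0.20, adjusted p = 0.052) or shNeuroD1 replicate 1 (-0.093, adjusted p = 0.31). The count called lower was 1 without shControl replicate 1, shControl replicate 2 or shNeuroD1 replicate 1.

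Mitotic microtubule genes, whose products build the spindle that STMN1 also acts on in dividing cells, were called lower in 29 of 29 and higher in 0, with a median of -0.88. The kinetochore proteins SKA3 (log2 fold change -1.46 ± 0.084, adjusted p = 5.95e-16) and SKA1 (-1.29 ± 0.104, adjusted p = 2.94e-12) and the spindle kinesin KIF15 (-1.24 ± 0.0582, adjusted p = 3.81e-18) fell most among those that averaged 10 CPM or more. Over this list the log2 fold changes ran from -1.46 to -0.20. STMN1, at -0.77, lay within that range, and DCX, at -0.44, did as well. Whether the lower level of either gene is tied to that of the mitotic genes was not tested.

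**Figure D5:**
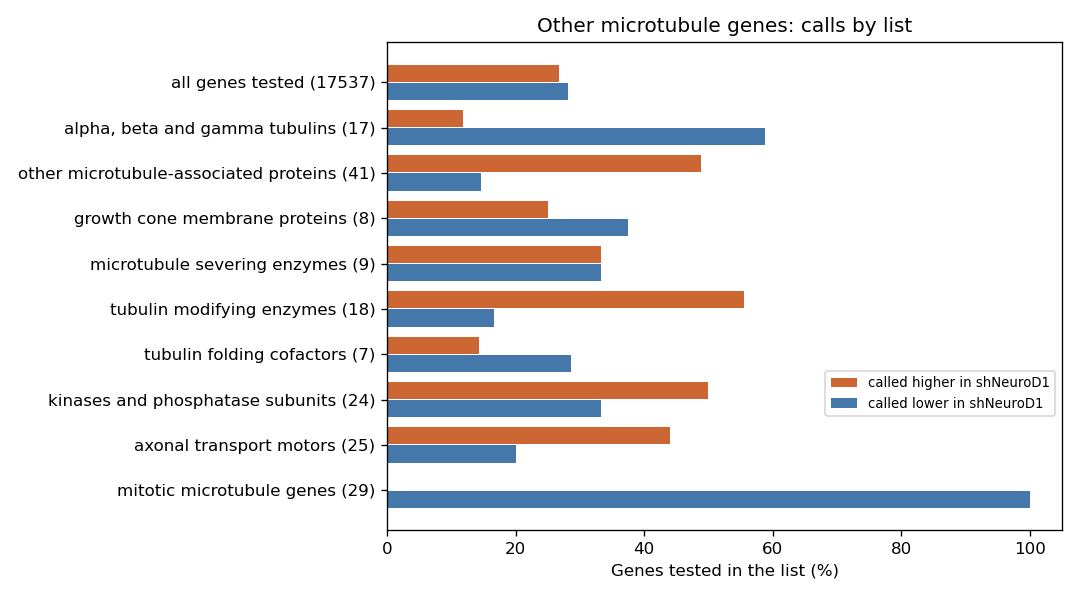
Percent of the genes tested in each of 9 lists (number tested in brackets) called higher (orange) or lower (blue) in shNeuroD1, with all 17537 genes tested at the top. Most lists pass the share of all genes (26.8% higher, 28.2% lower) in some direction. Tubulins and mitotic microtubule genes have a larger share of lower calls and a smaller share of higher calls. Other microtubule-associated proteins, tubulin modifying enzymes and motors show the reverse. Kinases and phosphatase subunits have larger shares in both directions. Growth cone proteins (2 higher and 3 lower of 8), severing enzymes (3 and 3 of 9) and folding cofactors (1 and 2 of 7) are short lists. They hold too few genes to be set against the share of all genes, and their counts moved with library size alone.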

How the data were processed

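Polyadenylated RNA of 4 IMR-32 libraries (2 shControl, 2 shNeuroD1) was analysed. Groups came from the sample titles. The authors deposited raw counts per Ensembl gene, made with HTSeq on paired-end reads, and per library FPKM values of transcript starts, ends and splicing events, which list an event only where it was found, so that an unlisted event was set to 0 here. The submitters' processing notes name cutadapt 1.9.1, HISAT2 2.0.1, HTSeq 0.6.1, DESeq2 and hg38. The use of strand in counting and the tool behind the event tables are not given in the sources used here. The deposited counts held no rows without a gene, so the share of reads outside genes, or shared between genes, is not known.

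The 10 genes and the lists were chosen with earlier results of these data known. Counts were fitted in edgeR 4.0.16 (R 4.3.3): filterByExpr with a minimum count of 10, TMM scaling, the quasi-likelihood F test (two-sided) and Benjamini-Hochberg adjustment over 17537 genes, called at 0.05. CPM are counts scaled to TMM library sizes, and levels between genes were divided by the GENCODE 29 exon union in kilobases. The SE of a log2 fold change was derived from it and the square root of F. The step was tested on simulated data. Genes named are the 10, NEUROD1 and, in each list, the 3 with the largest log2 fold change in size among called genes that averaged 10 CPM or more. Some items that these rules select are not reported here. Events were matched to a gene by chromosome, strand and position (within 500 bases). Totals of 14665210 to 16482463 counts set the precision, and libraries of a group differed by more than counting noise (chi-square per degree of freedom 2.53 in shControl and 1.56 in shNeuroD1). Alternatives were DESeq2 1.42.0, other size factors, other filters, a replicate block, limma 3.58.1 on log2(FPKM + 1) and log2(FPKM + 0.1) over 10085 genes, each library left out, and other gene lengths. One of these, the authors' FPKM as the level in the order of genes, was chosen after seeing the data.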

Additional observations from a re-analysis of the deposited data

How the results depend on the processing

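The 10 genes were chosen with this contrast known, so how their values move between fits is a description and supports nothing. Without a library a group rests on 1, which is assumed to vary like the other group. In limma on log2(FPKM + 1) 2 of the 10 genes were called higher and 0 lower, with their median at 0.48, and on log2(FPKM + 0.1) 2 and 0, with 0.49. The same 2 FPKM fits, with + 1 first, called 0 and 0 tubulins higher and 2 and 2 lower (medians -0.31 and -0.31), 3 and 2 other microtubule-associated proteins higher and 0 and 0 lower (0.15 and 0.16), and 1 and 0 kinases and phosphatase subunits higher and 0 and 0 lower (0.18 and 0.22). They called 1 and 1 motors higher and 1 and 1 lower, and 5 and 5 mitotic genes lower (-0.71 and -0.76). They called 0 higher and 0 lower of the growth cone proteins (medians -0.032 and -0.034), severing enzymes (-0.022 and -0.022), modifying enzymes (0.38 and 0.42) and folding cofactors (0.043 and 0.044). FPKM fits called 246 genes higher and 278 lower with + 1, out of 10085 tested. At an unadjusted p under 0.05 both FPKM fits put 0 growth cone proteins higher and 2 lower, 1 and 0 severing enzymes, 3 and 2 modifying enzymes and 1 and 0 folding cofactors. With + 1 first, they put 0 and 0 tubulins higher and 6 and 6 lower, 9 and 8 other microtubule-associated proteins higher and 5 and 5 lower, 4 and 3 kinases and phosphatase subunits higher and 3 and 3 lower, 5 and 5 motors higher and 2 and 2 lower, and 0 and 0 mitotic genes higher and 19 and 19 lower. The cause of the lower counts was not tested.

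Library size alone moved medians upward, to 0.47 for the 10 genes, -0.27 for tubulins, 0.35 for other microtubule-associated proteins, -0.082 for growth cone proteins, 0.12 for severing enzymes, 0.36 for modifying enzymes, 0.015 for folding cofactors, 0.19 for kinases and phosphatase subunits, 0.15 for motors and -0.77 for mitotic genes, with 0.12 over all genes. It called 2 folding cofactors higher and 1 lower, and 3 motors lower. DESeq2 called 1 folding cofactor lower, as did the fit with no filter, which put the median of other microtubule-associated proteins at 0.22. A mean of at least 1 CPM as the filter gave 1 tubulin higher and medians of 0.21 for other microtubule-associated proteins and -0.065 for growth cone proteins.

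Without 1 library, 1 to 2 tubulins and 0 to 2 growth cone proteins were called higher, and 2 to 5 motors and 1 to 2 folding cofactors lower. Medians ran from 0.18 to 0.20 for other microtubule-associated proteins, from -0.195 to -0.046 for growth cone proteins, from -0.093 to -0.020 for folding cofactors, from 0.013 to 0.078 for kinases and phosphatase subunits, from 0.037 to 0.090 for motors and from -0.91 to -0.85 for mitotic genes. With the longest transcript as length 4 of 10 places in the order of levels were kept in shControl and 3 in shNeuroD1, and with the authors' FPKM 2 and 1. Same-numbered libraries did not deviate together (r = 0.02 over 17537 genes), so the numbers are not taken to pair libraries, and a fit with the replicate number as a block called 4748 genes higher and 5000 lower in place of 4698 and 4939. It changed no call of the 10 genes or of the genes selected in the lists. STMN4 is limited by depth, with 41 and 44 counts in the controls.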
